A study of Macaca mulatta with 24 samples.

Results

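The matrix metalloproteinases (*MMP*), the ADAMTS proteases, the ADAMTS-like proteins (*ADAMTSL*) and the tissue inhibitors of metalloproteinases (*TIMP1* to *TIMP4*) were examined in omental white adipose tissue (WAT) of female rhesus macaques by RNA-seq. Members were the genes whose whole symbol was MMP, ADAMTS or ADAMTSL followed by a number, or TIMP1 to TIMP4, and 49 of the 32386 genes in the count table met this rule. They comprised 23 *MMP*, 17 *ADAMTS*, 5 *ADAMTSL* and 4 *TIMP* genes. The 24 animals, labelled as 4 years old although the study's methods give an older age at biopsy, formed 4 groups of 6. Controls (*C*) carried cholesterol implants and ate monkey chow. The *T* group carried testosterone implants and ate chow, the *WSD* group carried cholesterol implants and ate a high-fat western-style diet, and the *T* + *WSD* group received testosterone together with that diet. Treatment lasted 3 years before the visceral biopsy, and each animal gave 1 ribosomal RNA-depleted library, so every value below comes from a separate animal. The testosterone implants modelled hyperandrogenemia in young adult females, and each biopsy was a mixture of cell types.

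Matrix metalloproteinases are zinc-dependent enzymes, secreted or held at the cell surface, that are made as inactive proenzymes and cut collagens, gelatin, elastin and many non-matrix proteins. TIMPs bind their active sites and block them. ADAMTS enzymes carry thrombospondin-type repeats that anchor them in the matrix, where several cut proteoglycans or trim procollagen, whereas ADAMTS-like proteins lack the protease domain. In adipose tissue, enlargement of fat cells is accompanied by breakdown and rebuilding of the surrounding matrix.

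Levels are given in CPM, counts scaled to a common library size, after TMM normalization, which corrects for the composition of each library. They are not divided by gene length, so they compare animals within a gene and not genes with each other. A member was called when its edgeR adjusted p was under 0.05 and its fold change over 1.5, with the adjustment made over all 15207 genes tested. Library totals ran from 6899185 to 28270776 counts. In 8 libraries, 2 in each group, a single gene (ENSMMUG00000038258) took 9.92 to 54.7% of the counts, against 0.879 to 2.51% in the other 16. Defining genes of adipocytes were abundant in every library, with a summed level of 3418 CPM or more. This level differed between groups, at 3418 to 20137 CPM in *C* (median 15053) and 19035 to 30210 in *T* + *WSD* (median 28828). Mesothelial genes, which mark the serosal lining of the omentum, stood lower in *T* + *WSD* animals, where their mean log2 CPM was 2.75 to 5.33 against 6.37 to 7.71 in *C*, with no overlap. In bulk tissue, fewer cells of a type and less RNA per cell cannot be told apart.

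Of the 49 members, 40 had enough counts to be tested and 9 did not. No untested member exceeded 15 counts in any library. The collagenases *MMP1*, *MMP8* and *MMP13*, which open the triple helix of fibrillar collagen, held 15, 6 and 8 counts over all 24 libraries. The stromelysins *MMP3* and *MMP10* held 131 and 3 counts, the macrophage elastase *MMP12* held 73, *ADAMTS20* held 24 and the matrilysin *MMP26* held 2. *MMP20*, the enamel protease, had no count, which allows up to 0.00672 CPM over all libraries. No row of the table carried the symbol *ADAMTS4* or *ADAMTS19*, which were therefore not analysed here.

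The combined treatment was compared with controls to ask how the joint exposure differed from neither exposure. Of the 40 tested members, 10 were called (25%), against 10% of all genes tested. The 6 higher in *T* + *WSD* were *MMP7*, *MMP9*, *ADAMTS5*, *ADAMTS18*, *ADAMTSL5* and *TIMP3*, and the 4 lower were *MMP19*, *MMP24*, *ADAMTS3* and *TIMP1*, against 4.72% of all genes higher and 5.29% lower. An unadjusted p under 0.05 was found for 18 members (45%), against 32.1% of all genes. The median log2 fold change of the 40 was 0.16, beside -0.04 for all genes. Groups did not overlap for 4 members, against 7.61% of all genes in either direction. All 4 were higher in *T* + *WSD*, against 3.49% of all genes, and 0 were lower, against 4.12%. DESeq2 called 13 members with the same thresholds, against 10.9% of the genes it tested. No member was called without the 8 libraries named above, where 0.505% of genes were called with 4 animals a group, nor with the mesothelial mean as a covariate, where no gene passed.

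**Figure D1:**
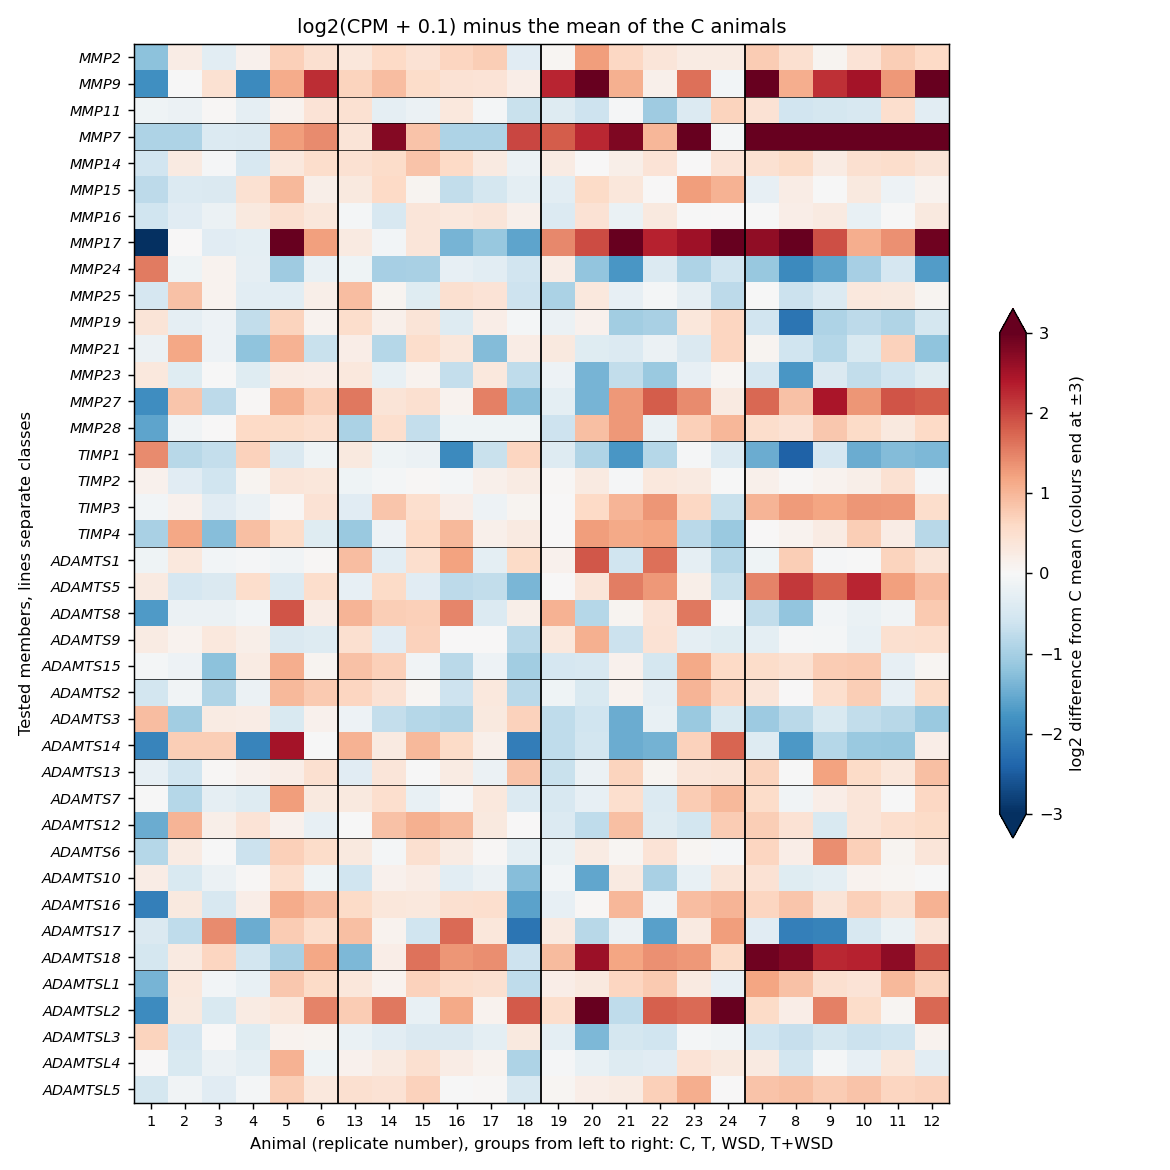
Each row is a tested member and each column an animal, and the colour gives log2(CPM + 0.1) minus the mean of the 6 *C* animals. Thick vertical lines separate *C*, *T*, *WSD* and *T* + *WSD*, and all 6 *T* + *WSD* columns are red for *MMP7*, *ADAMTS18*, *ADAMTS5* and *TIMP3*.

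The inhibitors moved in opposite directions. *TIMP1* (ENSMMUG00000011426), a secreted inhibitor of most MMPs, ranged from 194 to 926 CPM in *C* with a median of 286, from 92.0 to 543 (median 311) in *T*, from 103 to 340.4 (median 225) in *WSD* and from 64.2 to 245 (median 129) in *T* + *WSD*. Of the *T* + *WSD* animals, 5 of 6 lay below every control, and the widest spread was among the controls. Between *T* + *WSD* and *C* its log2 fold change was -1.56 ± 0.42 (SE, edgeR adjusted p = 0.0151, n = 6 a group). Without the highest control, replicate 1, it was -1.13 (edgeR adjusted p = 0.0629), and with the mesothelial mean as a covariate it was 0.42.

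*TIMP3* (ENSMMUG00000006734), the inhibitor that binds tightly to the matrix and also blocks several ADAM and ADAMTS enzymes, ran the other way. Its level was 680.3 to 1162 CPM in *C* (median 849), 683 to 1520.2 in *T* (median 945), 545 to 2161 in *WSD* (median 1314) and 1239 to 2151 in *T* + *WSD* (median 2010). Every *T* + *WSD* animal stood above every control, while the *WSD* animals spanned the whole range of both groups. Its log2 fold change against *C* was 1.11 ± 0.25 (edgeR adjusted p = 0.00774), and it was 1.11 without the 8 libraries (edgeR adjusted p = 0.0953).

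*TIMP2* and *TIMP4* were not called in any comparison. *TIMP2* (ENSMMUG00000005355), which besides inhibiting takes part in the activation of pro-*MMP2* by *MMP14*, had medians of 91.5, 84.4, 94.2 and 93.2 CPM in *C*, *T*, *WSD* and *T* + *WSD*, with animals from 56.3 to 117 over all groups. Its log2 fold change in *T* + *WSD* had a 95% interval of -0.14 to 0.38. *TIMP4* (ENSMMUG00000001127), an inhibitor prominent in fat and heart, had medians of 16.3, 16.9, 23.5 and 16.4 CPM in the same order. Its animals ran from 5.94 to 35.1 CPM and its interval from -0.99 to 0.78.

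**Figure D2:**
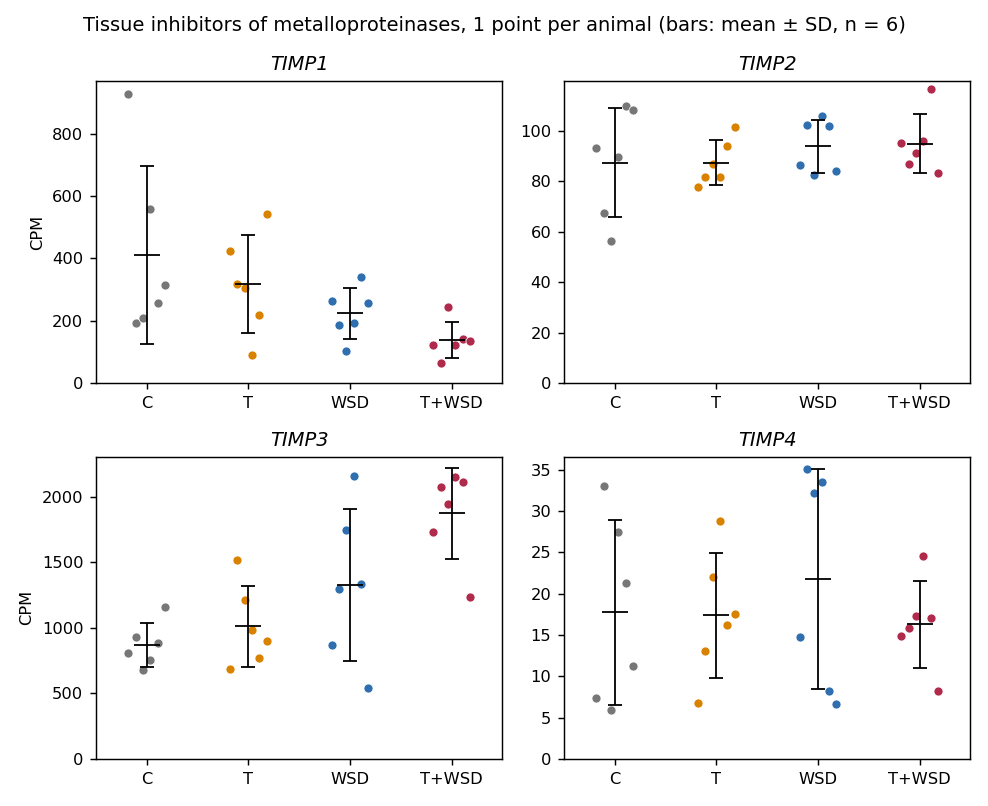
Levels of the 4 TIMP genes in CPM (linear axis from 0), with 1 point per animal and bars for the mean ± SD (n = 6 a group). The mean of *TIMP1* is 139 CPM in *T* + *WSD* and 410 in *C*, and that of *TIMP3* is 1875 and 872 CPM. The groups of *TIMP2* and *TIMP4* overlap.

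Among the gelatinases, which degrade denatured collagen and basement-membrane collagen, the pair differed in their calls. *MMP9* (ENSMMUG00000016549) lay at 0.371 to 8.05 CPM in *C* (median 1.98), 1.94 to 3.23 in *T* (median 2.38), 1.58 to 16.1 in *WSD* (median 4.52) and 3.67 to 30.9 in *T* + *WSD* (median 8.95). In *T* + *WSD*, 3 of 6 animals exceeded all controls, and the rest fell within the controls' range. *MMP9* thus had a log2 fold change of 2.08 ± 0.66 (edgeR adjusted p = 0.0335). The call was lost in 6 of 12 fits that left out a single animal (*C* replicates 1, 2, 3 and 4 and *T* + *WSD* replicates 7 and 12). The values ran from 1.53 without *T* + *WSD* replicate 7, the highest animal (edgeR adjusted p = 0.109), to 2.79 without *C* replicate 6. It was also lost with a covariate marking the 8 libraries, with no filter on low counts and with only these groups fitted (edgeR adjusted p = 0.0511, 0.0574 and 0.0705). *MMP2* (ENSMMUG00000004475) had medians of 617, 777, 675 and 794 CPM in *C*, *T*, *WSD* and *T* + *WSD*, and its log2 fold change in *T* + *WSD* was 0.41 ± 0.25 (edgeR adjusted p = 0.280).

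The only tested matrilysin, *MMP7* (ENSMMUG00000003405), a small secreted protease typical of epithelia, was scarce and rose steeply. It was at 0 to 0.409 CPM in *C* (median 0.0417), 0 to 1.17 in *T* (median 0.196), 0.0832 to 2.53 in *WSD* (median 0.688) and 1.98 to 32.3 in *T* + *WSD* (median 4.31). These levels came from 0 to 10 counts a library in *C* and 7 to 270 in *T* + *WSD*. No *T* + *WSD* animal overlapped the controls, and replicate 7 stood far above the other 5. The fitted log2 fold change was 5.71 ± 1.06 (edgeR adjusted p = 0.00317). It was 4.64 without replicate 7 (edgeR adjusted p = 0.00849), 6.33 without *C* replicate 6 and 4.42 without the 8 libraries (edgeR adjusted p = 0.0684). With the mesothelial mean as a covariate it was 5.87, at an edgeR adjusted p of 0.999.

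The membrane-type enzymes, anchored at the cell surface, comprised 6 tested members, of which 1 was called. *MMP24* (ENSMMUG00000018206) ranged from 14.9 to 91.9 CPM in *C* (median 27.7), 15.5 to 28.3 in *T* (median 22.9), 9.24 to 36.5 in *WSD* (median 18.5) and 8.20 to 21.8 in *T* + *WSD* (median 12.3). In *T* + *WSD*, 4 of 6 animals lay below every control, with *C* replicate 1 far above the others. This gave a log2 fold change of -1.45 ± 0.37 (edgeR adjusted p = 0.0118). It kept its call in all 12 fits that left out a *C* or *T* + *WSD* animal, with values from -1.66 to -0.93, but was -0.80 without the 8 libraries (edgeR adjusted p = 0.170). *MMP14* (ENSMMUG00000013665), the activator of pro-*MMP2*, had medians of 264, 347, 282 and 338 CPM in *C*, *T*, *WSD* and *T* + *WSD* and a log2 fold change of 0.39 ± 0.17 in *T* + *WSD* (edgeR adjusted p = 0.1105).

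Of 5 tested MMPs outside these classes, *MMP19* (ENSMMUG00000006295), a secreted protease of basement-membrane proteins, was called. Its level was 61.3 to 163 CPM in *C* (median 101), 77.7 to 148 in *T* (median 115), 49.3 to 161 in *WSD* (median 101) and 22.3 to 70.5 in *T* + *WSD* (median 57.3). Of the *T* + *WSD* animals, 4 lay below all controls and the remaining pair just inside their range. Its log2 fold change was -0.96 ± 0.29 (edgeR adjusted p = 0.0268), and the adjusted p rose to 0.0690, 0.0572 and 0.0629 without *C* replicates 1 and 5 and *T* + *WSD* replicate 8. Log2 fold changes of *MMP23* and *MMP27* were -0.68 and 1.58, with edgeR adjusted p of 0.0647 and 0.0519, and DESeq2 called both (adjusted p = 0.0496 and 0.0240).

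Among the proteoglycan-cleaving ADAMTS enzymes, 1 of 5 tested was called. *ADAMTS5* (ENSMMUG00000013405), a main aggrecan- and versican-cutting enzyme, was at 81.1 to 165 CPM in *C* (median 112), 44.3 to 169 in *T* (median 79.1), 72.2 to 331 in *WSD* (median 138) and 217 to 561 in *T* + *WSD* (median 356). Every *T* + *WSD* animal exceeded every *C* and every *T* animal. Relative to *C*, the log2 fold change was 1.64 ± 0.36 (edgeR adjusted p = 0.00610), from 1.49 to 1.76 when single animals were left out, and 1.54 without the 8 libraries (edgeR adjusted p = 0.0898). Its relative *ADAMTS1* (ENSMMUG00000013407), also a versican-cutting enzyme, had medians of 172, 259, 172 and 206 CPM in *C*, *T*, *WSD* and *T* + *WSD*. *ADAMTS1* spread from 164 to 221 CPM among controls but from 99.1 to 653 among *WSD* animals, and its log2 fold change in *T* + *WSD* was 0.30 ± 0.38 (edgeR adjusted p = 0.629).

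The procollagen N-propeptidases trim the amino end of fibrillar procollagens, and *ADAMTS3* (ENSMMUG00000017977), which also processes the lymphatic growth factor VEGFC, was the member called among 3. It was at 4.27 to 17.04 CPM in *C* (median 10.1), 4.76 to 14.6 in *T* (median 6.73), 3.14 to 7.69 in *WSD* (median 5.52) and 4.08 to 6.51 in *T* + *WSD* (median 5.02). Only 2 of the *T* + *WSD* animals lay below all controls. Its log2 fold change was -0.97 ± 0.31 (edgeR adjusted p = 0.0335), and the call was lost in 8 of 12 fits that left out a single animal, with an adjusted p of up to 0.118 without *C* replicate 1.

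Of the remaining ADAMTS genes, *ADAMTS18* (ENSMMUG00000000824), whose substrates are less well defined, was at 0.219 to 1.31 CPM in *C* (median 0.497), 0.149 to 1.87 in *T* (median 1.06), 0.832 to 3.66 in *WSD* (median 1.39) and 2.20 to 4.66 in *T* + *WSD* (median 3.49). No *T* + *WSD* animal overlapped *C* or *T*. Its counts were low, at 4 to 32 a library in *C* and 15 to 92 in *T* + *WSD*. Against *C*, *ADAMTS18* had a log2 fold change of 2.46 ± 0.51 (edgeR adjusted p = 0.00505) and 2.15 without the 8 libraries (edgeR adjusted p = 0.0676). *ADAMTS13*, the protease that shortens von Willebrand factor, had a log2 fold change of 0.64 (edgeR adjusted p = 0.0811) and was called by DESeq2 (adjusted p = 0.0421).

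Among the ADAMTS-like proteins, which bind fibrillin microfibrils without cutting, *ADAMTSL5* (ENSMMUG00000003815) was called of 5. It was at 4.78 to 11.6 CPM in *C* (median 6.50), 4.94 to 11.3 in *T* (median 8.29), 6.99 to 14.8 in *WSD* (median 8.09) and 10.96 to 13 in *T* + *WSD* (median 12.2). The *T* + *WSD* animals lay close together, and 4 of them exceeded all controls. Their log2 fold change from *C* was 0.72 ± 0.22 (edgeR adjusted p = 0.0289), and the call was lost in 6 of 12 fits that left out a single animal, with adjusted p from 0.0503 to 0.0730.

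**Figure D3:**
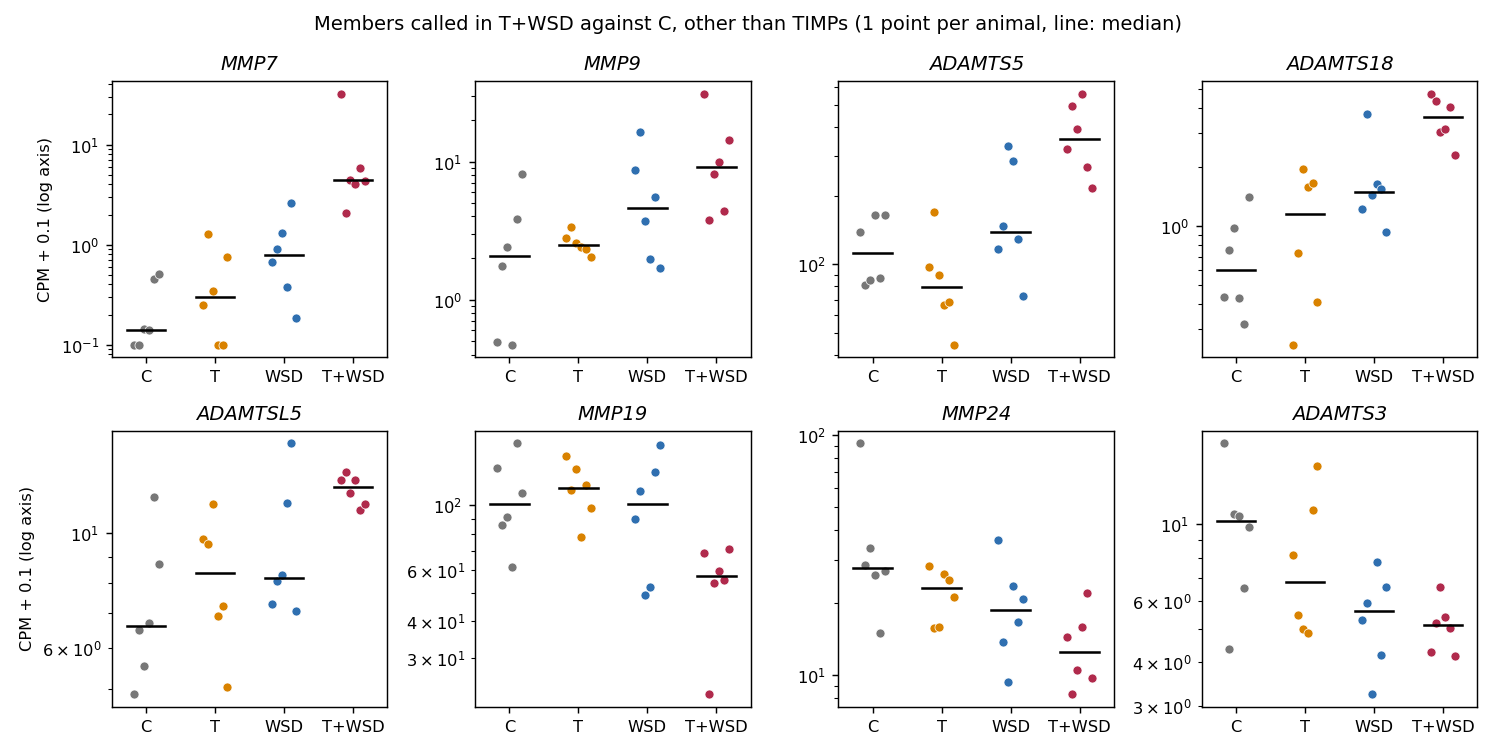
Levels of the 8 called members other than TIMPs, as CPM + 0.1 on log axes, with 1 point per animal and a line at the group median. *MMP7*, *ADAMTS5* and *ADAMTS18* of *T* + *WSD* lie above every *C* point, whereas *MMP9*, *ADAMTSL5*, *MMP19*, *MMP24* and *ADAMTS3* overlap *C* in part.

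The single exposures were each compared with the same 6 controls. In *WSD* against *C*, 0 of 40 members were called by edgeR, against 0% of all genes, with 10 members (25%) at an unadjusted p under 0.05 against 18.5% of all genes. No member separated the groups, against 0.401% of all genes. DESeq2 called 1.58% of its genes and 1 member, *ADAMTSL2* (ENSMMUG00000017203), a regulator of transforming growth factor beta in microfibrils. *ADAMTSL2* was at 0.394 to 4.99 CPM in *C* (median 2.10), 1.46 to 6.41 in *T* (median 3.44), 0.977 to 56.9 in *WSD* (median 6.01) and 1.81 to 5.91 in *T* + *WSD* (median 2.60). The *WSD* mean rested largely on replicates 20 and 24, at 56.9 and 16.5 CPM. In *WSD* the log2 fold change was 2.74 ± 0.73 (edgeR adjusted p = 0.131, DESeq2 adjusted p = 0.0116) and 1.57 by edgeR without replicate 20 (adjusted p = 0.306).

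In *T* against *C*, neither tool called a member, against 0% of all genes by edgeR and 0.0466% by DESeq2, and 3 members (7.5%) had an unadjusted p under 0.05 against 8.63% of all genes. Groups overlapped for every member, where 0.263% of all genes did not. The 3 were the membrane-type enzymes *MMP14*, *MMP17* and *MMP24*, at log2 fold changes of 0.41, -1.65 and -0.75. For the 10 members called in *T* + *WSD*, the *WSD* and *T* values share these controls and are given side by side. *MMP7* had log2 fold changes of 2.5 and 1.04 in *WSD* and *T*, and *ADAMTS18* of 1.36 and 0.70. *ADAMTS5* was at 0.58 and -0.43 and *MMP9* at 1.1 and -0.19. *ADAMTSL5* was at 0.38 and 0.17, *MMP19* at -0.12 and 0.09, *MMP24* at -0.90 and -0.75 and *ADAMTS3* at -0.86 and -0.27. Of the inhibitors, *TIMP3* was at 0.60 and 0.22 and *TIMP1* at -0.87 and -0.37. None of these single-exposure values passed the threshold.

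**Figure D4:**
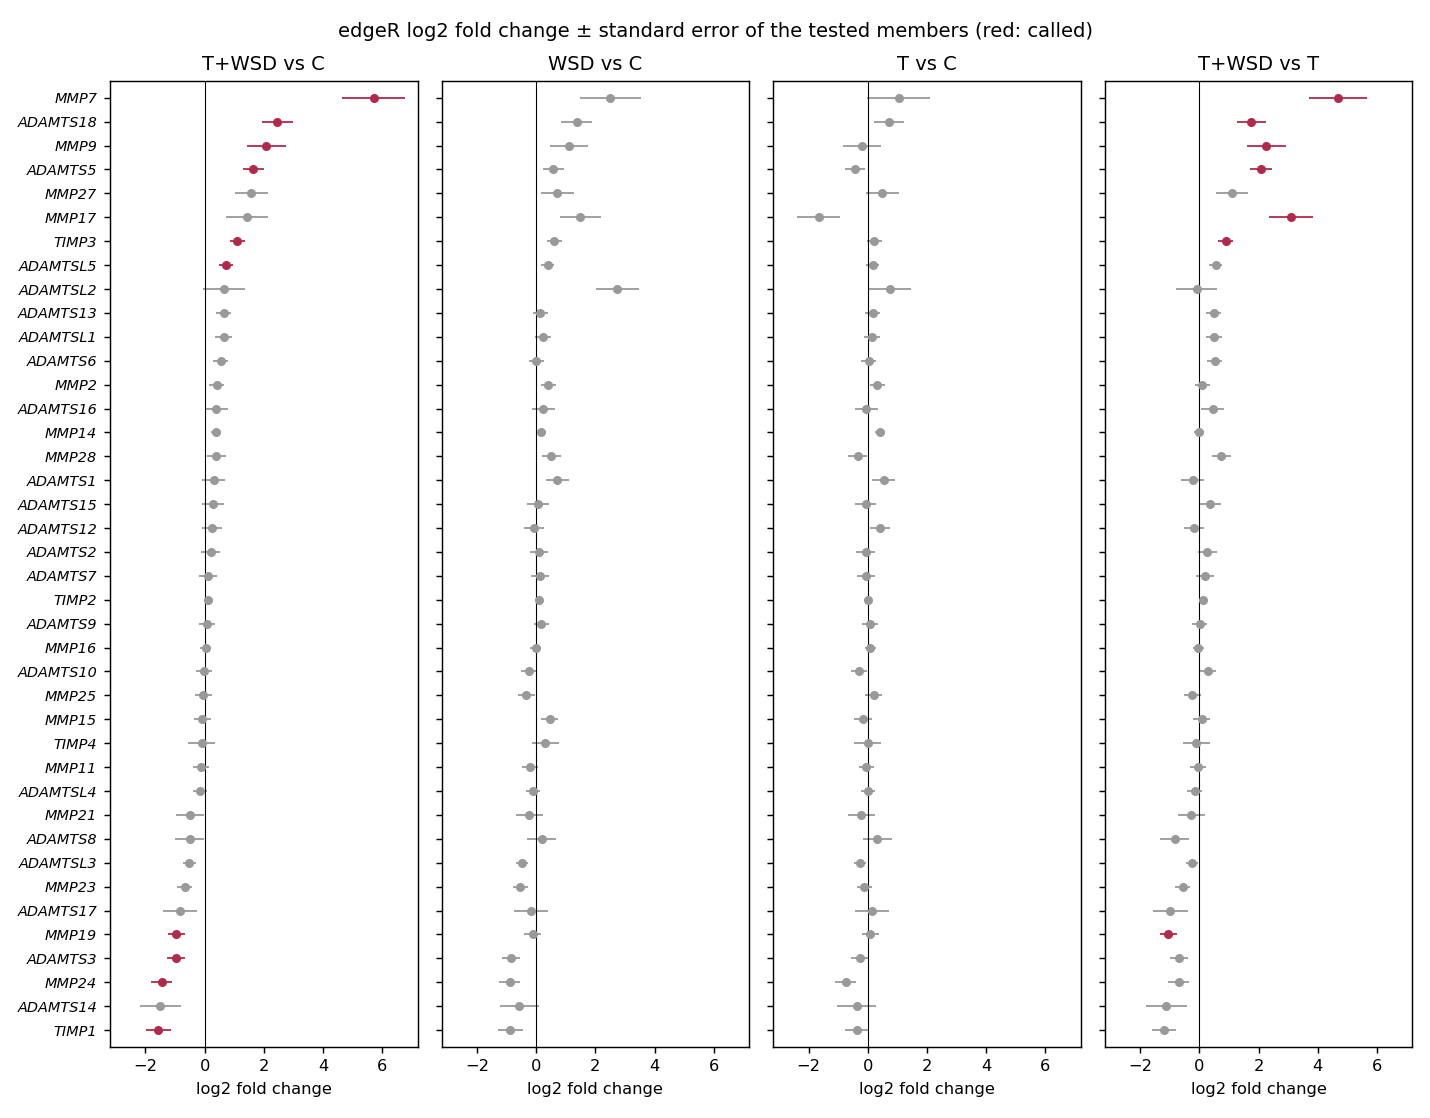
Log2 fold change ± SE from edgeR for the 40 tested members in 4 comparisons, ordered by *T* + *WSD* against *C*. Red marks called members, which number 10 in *T* + *WSD* against *C*, 7 in *T* + *WSD* against *T* and 0 in *WSD* or *T* against *C*.

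The diet was also compared within the testosterone-treated animals, *T* + *WSD* against *T*, where 7 of 40 members were called (17.5%), against 3.77% of all genes, with 13 members (32.5%) at an unadjusted p under 0.05 against 25.9%. The 6 higher stood beside 2.34% of all genes and the 1 lower beside 1.43%. DESeq2 called 8 members, the 7 and *TIMP1*, against 5.92% of its genes. Of the 7, 6 were also called against *C*, a comparison that shares the *T* + *WSD* animals. Groups did not overlap for 6 members, against 6.10% of all genes, with 5 higher (2.99%) and 1 lower (3.10%). *ADAMTS5* had a log2 fold change of 2.08 ± 0.36 (edgeR adjusted p = 0.00459), *MMP7* of 4.67 ± 0.98 (edgeR adjusted p = 0.0122; 3.58 and 5.28 without *T* + *WSD* replicate 7 and *T* replicate 14) and *MMP9* of 2.27 ± 0.66 (edgeR adjusted p = 0.0446). *ADAMTS18* rose by 1.75 and *TIMP3* by 0.89 on the log2 scale, while *MMP19* fell by 1.05. In the 12 fits that left out a single *T* or *T* + *WSD* animal, *ADAMTS5* and *MMP7* kept their calls throughout, whereas *TIMP3* and *MMP9* each lost theirs in 10, *ADAMTS18* in 9 and *MMP19* in 8. With no filter on low counts these 4 were not called either, at edgeR adjusted p of 0.0577, 0.0685, 0.0541 and 0.0505 in the same order. Without the 8 libraries only *ADAMTS5* and *MMP7* stayed called, at 2.43 and 4.29, beside 1.99% of all genes. With the mesothelial mean as a covariate no member and no gene was called. Markers of other cell types moved in this comparison too. Mesothelial genes were lower in 7 of 11 tested, and their mean log2 CPM was 5.71 to 6.98 in *T*, above every *T* + *WSD* animal, although the summed levels of 2990 to 18075 CPM in *T* overlapped those of *T* + *WSD* at 286 to 3286. Higher were 4 of 8 lipid-associated macrophage genes, 2 of 8 smooth muscle and pericyte genes and 1 of 8 macrophage genes (*MSR1*), and 1 of 6 neutrophil genes was lower, with none called among adipocyte, endothelial, fibroblast, T and NK or B and plasma cell genes. The mesothelial mean did not overlap between *T* and *T* + *WSD*, so the mesothelial level and the diet cannot be told apart here. The part of the other cell types in the values against *T* was not tested.

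*MMP17* (ENSMMUG00000010331), a membrane-type enzyme held by a lipid anchor, was the member called against *T* but not against *C*. It was at 0.169 to 29.8 CPM in *C* (median 3.11), 1.06 to 4.42 in *T* (median 2.36), 9.43 to 42.7 in *WSD* (median 18.9) and 7.37 to 54.8 in *T* + *WSD* (median 17.7). No *T* + *WSD* animal overlapped *T*, and the controls held both the lowest and a high value, in replicates 1 and 5. It differed from *T* by a log2 fold change of 3.09 ± 0.75 (edgeR adjusted p = 0.0226), and the adjusted p was 0.0549 without *T* + *WSD* replicate 8. Against *C* it was 1.44 ± 0.70 in *T* + *WSD* (edgeR adjusted p = 0.159) and 1.49 ± 0.69 in *WSD* (edgeR adjusted p = 0.256).

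**Figure D5:**
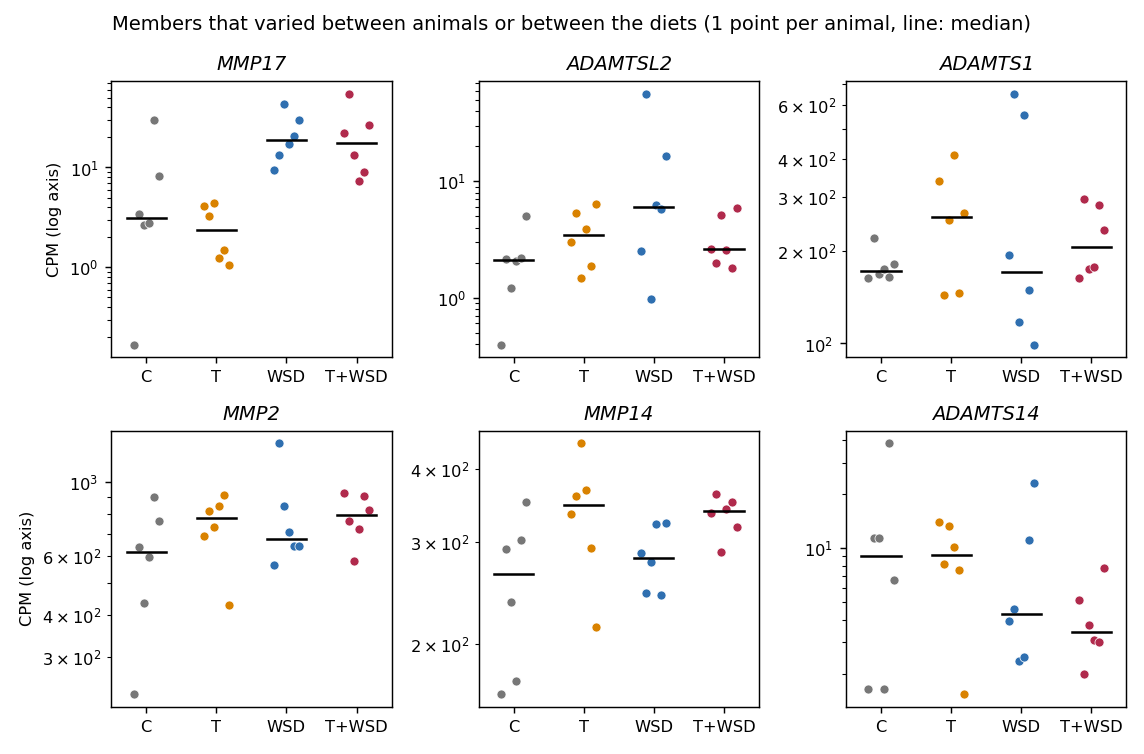
Levels in CPM on log axes of *MMP17*, *ADAMTSL2*, *ADAMTS1*, *MMP2*, *MMP14* and *ADAMTS14*, with 1 point per animal and a line at the group median. *MMP17* is higher in every *WSD* and *T* + *WSD* animal than in any *T* animal, and *ADAMTSL2* is spread most widely in *WSD*.

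Testosterone within the diet, *T* + *WSD* against *WSD*, gave 0 calls by edgeR, against 0.815% of all genes, with 6 members (15%) at an unadjusted p under 0.05 against 20%. Groups overlapped for every member, where 2.84% of all genes did not. DESeq2 called *MMP7*, *ADAMTS5* and *ADAMTSL2*, against 2.54% of its genes. Their log2 fold changes by edgeR were 3.21, 1.06 and -2.10, with adjusted p of 0.0637, 0.101 and 0.105, and *ADAMTSL2* was at -0.93 without *WSD* replicate 20. Leaving out *WSD* replicate 21 gave calls for *ADAMTS5*, *ADAMTSL2* and *MMP19*, beside 2.92% of all genes. The interaction of *T* and *WSD*, called at an adjusted p under 0.1, also gave 0 members by edgeR, against 0.809% of all genes, with 3 (7.5%) at an unadjusted p under 0.05 against 13.5%. DESeq2 called *ADAMTS5* and *ADAMTSL2*, against 2.77% of its genes. *ADAMTS5* had an interaction of 1.49 ± 0.50 on the log2 scale (edgeR adjusted p = 0.186, DESeq2 0.0968) and *ADAMTSL2* of -2.84 ± 0.998 (edgeR adjusted p = 0.212, DESeq2 0.0909). The edgeR adjusted p of these interactions fell to 0.0698 and 0.0877 without *WSD* replicate 21, where 3.44% of all genes were called.

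Over all 6 comparisons, 29 of the 40 tested members were called in none by edgeR, and 25 in none by edgeR or DESeq2. In *T* + *WSD* against *C*, the 20 members not described above included *ADAMTS14* at -1.5 and *ADAMTSL1* at 0.64 on the log2 scale, the lowest and highest of them, with edgeR adjusted p of 0.138 and 0.108. *ADAMTS14*, a procollagen N-propeptidase, spread from 1.63 to 38.5 CPM among controls and from 1.98 to 7.74 in *T* + *WSD*.

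Partner genes of the pathway were counted in the same comparison. None of 9 tested activators of the proenzymes and none of 12 ADAM proteases was called in *T* + *WSD* against *C*. Among all genes tested, 4.72% were called higher and 5.29% lower, and no partner list was tested against these shares. Of 9 further inhibitors, *SPOCK1*, a testican, was higher (log2 fold change 2.13, edgeR adjusted p = 0.0170) and *SERPINE2*, an inhibitor of serine proteases that act on the proenzymes, was lower (-1.44, edgeR adjusted p = 0.0153). Of 8 genes for docking, induction and clearance, the tight-junction gene *CLDN1* was lower (-1.70, edgeR adjusted p = 0.0145). Of 15 substrates and binding partners, *VWF*, cut by *ADAMTS13*, was higher (0.97, edgeR adjusted p = 0.00740). The collagens, fibronectin and elastin of this list were not called by edgeR. *COL4A1*, *COL4A2* and the activator *PCSK6* had log2 fold changes of 0.90, 0.82 and 0.65. Their edgeR adjusted p was 0.0611, 0.0695 and 0.0565, and their DESeq2 adjusted p 0.0310, 0.0383 and 0.0350.

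Markers of other cell types moved with these members in *T* + *WSD* against *C*. Mesothelial genes were lower in 9 of 11 tested, against 5.29% of all genes, with summed levels of 2967 to 40068 CPM in *C* and 286 to 3286 in *T* + *WSD*. Higher were 5 of 8 endothelial genes, 3 of 8 smooth muscle and pericyte genes, 2 of 9 adipocyte genes and 1 of 8 macrophage genes, against 4.72% of all genes. The summed endothelial levels did not overlap, at 968 to 1646 CPM in *C* and 1811 to 2833 in *T* + *WSD*, whereas the summed mesothelial levels did. The adipocyte genes were *LEP* and *FABP4*, whose other row was not called (edgeR adjusted p = 0.420). Of 8 lipid-associated macrophage genes, 4 were higher and 1 lower. Of 10 fibroblast genes 1 was higher, of 6 neutrophil genes 2 were lower, and none of 6 T and NK cell genes or of 4 B and plasma cell genes was called. With the mesothelial mean as a covariate, the log2 fold changes of *MMP24*, *MMP19* and *ADAMTS3* were -0.07, -0.03 and -0.09, and those of *ADAMTS18*, *ADAMTS5*, *MMP9*, *TIMP3* and *ADAMTSL5* were 1.5, 0.98, 1.17, 0.65 and 0.60. The mean did not overlap between *C* and *T* + *WSD*, so the mesothelial level and the treatment cannot be told apart, and the part of the other cell types in these values was not tested.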

How the data were processed

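The authors deposited a table of raw counts per gene for the 24 libraries. Per the labels, RNA with a RIN over 8 was made into ribosomal RNA-depleted libraries. The submitters' processing notes name FastQC 0.11.5, Trimmomatic 0.36, STAR 2.5.2b and DESeq2 1.18.1, and the study's methods name the rheMac8 build. The counting tool and strand setting are not given in the sources used here.

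Symbols came from a gene name table for 48 members and from the study's supplementary tables for 1 (*TIMP3*). Counts were fitted with edgeR 4.0.16 in R 4.3.3 (TMM, low-count genes removed by filterByExpr at settings of 10 a library and 15 in total, robust quasi-likelihood F-test, all 4 groups in 1 fit), with Benjamini-Hochberg adjustment over 15207 genes. SE was the log2 fold change divided by the square root of F. Scripts were tested on simulated data. Alternatives were DESeq2 1.42.0, RLE scaling, other count filters, and the mesothelial mean of 11 genes as a covariate. Others were only the groups compared, each animal left out, and the 8 libraries left out or marked by a covariate. These 8 were set from the counts alone (over 5% in ENSMMUG00000038258), and the labels name no batch. Members given with levels were those called by edgeR and 10 fixed genes, and members with an unadjusted p under 0.01 or called by DESeq2 alone were named with fold changes. Genes outside this rule (*ADAMTS14*, *ADAMTSL1*, *COL4A1*, *COL4A2*, *PCSK6*, *LRP1*) were chosen after their values were seen. The members and gene lists were chosen with earlier results of these data known. None of 60 pairs of libraries within groups was identical. Intervals and count limits cover counting or model error only.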

Additional observations from a re-analysis of the deposited data

Results flagged for a closer look

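A gap test on log2(CPM + 0.1) in each group of 6, over 80 groups (the tested members given with values by the naming rule, without *ADAMTS14* and *ADAMTSL1*, in each of the 4 treatments), marked 4 animals as far from the others of their group; chance marks about 1 in 20 groups, or 4 of 80. *MMP7* was at 32.3 CPM in *T* + *WSD* replicate 7, far above the other 5 animals. *MMP19* and *MMP23* were at 22.3 and 9.33 CPM in *T* + *WSD* replicate 8, the library with the fewest counts, below the others. *ADAMTS1* was at 221 CPM in *C* replicate 2, above the other controls.

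Among members with too few counts to test, 3 had a library above the 3 counts that no control exceeded. The highest count was 5 for *ADAMTS20* in *T* + *WSD*, 6 for *MMP1* in *WSD* and 4 for *MMP8* in *WSD*.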

How the results depend on the processing

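In *T* + *WSD* against *C*, 10 members were called, and 0 without the 8 libraries or with the mesothelial mean as a covariate. Leaving out single animals of any group gave 5 to 12 (5 without *C* replicate 1, 12 without *C* replicate 5 or *WSD* replicate 20). In *T* + *WSD* against *T*, 7 were called, beside 3.77% of all genes. With no filter 3 were called (1.56% of genes), and 3 of the 29 tested with at least 10 counts in every animal (3.58%). Without the 8 libraries 2 were called (1.99%), and 0 with the mesothelial covariate (0%). There were 2 to 8 when single animals of any of the 4 groups were left out (8 without *C* replicate 1, whose group shares the fit). Leaving out a *T* or *T* + *WSD* animal gave 2 to 6. There were 6 without *T* replicate 14 (4.81% of genes) or *T* + *WSD* replicate 12 (2.38%). There were 2 without *T* + *WSD* replicate 8 (1.64%), and 3 or 4 without any other. DESeq2 called 1 member in *WSD* against *C*, 3 in *T* + *WSD* against *WSD* and 2 in the interaction, where edgeR called 0. Leaving out single animals gave 0 to 3 and 0 to 2 in the last pair. The highest came without *WSD* replicate 21, beside 2.92% and 3.44% of all genes. Under the mesothelial covariate the log2 fold changes of *ADAMTS1*, *MMP2*, *MMP23* and *TIMP1* in *T* + *WSD* against *C* became -0.35, -0.26, 0.058 and 0.42, and that of *TIMP1* against *T* 0.44. *TIMP4*, at -0.10, was 0.038 without the 8 libraries and -0.29 to 0.17 when single animals were left out. The causes were not tested. Without the 8 libraries, the smaller number of animals and the removal of those libraries cannot be told apart. No paired analysis was possible because the labels number the animals 1 to 24, so no number is shared between groups. Members with low counts, such as *MMP7* and *ADAMTS18*, are limited by depth, and DESeq2 gave no adjusted p for genes it filtered.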
